A study of Mus musculus with 11 samples.

Results

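mmu-miR-33, mmu-miR-96, mmu-miR-182 and mmu-miR-183 are microRNAs tied to the sterol regulatory element-binding proteins (SREBPs), and their levels were measured in livers of LivPGC-1β mice and of wild type (WT) controls. They were chosen by name for that tie. No measured value was used in the choice, though earlier results of these data were known. miR-33 lies inside the gene of SREBP-2, and SREBP-2 is known to induce the cluster of miR-183, miR-96 and miR-182. They are 4 of the 655 probes of the array, and all 4 were among the 493 probes that passed the detection filter and were tested.

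The study asked which hepatic microRNAs differ when a PGC-1 coactivator is overexpressed in the liver. RNA of 6 LivPGC-1β livers, with PGC-1β overexpressed in that organ, was compared with RNA of 5 WT livers, 1 mouse on each array of a single Illumina bead chip. All 11 mice were of the FVB/N strain (FVBN in the labels), 4 months old, kept on a standard diet and fasted overnight before the liver was taken, and only RNA above a quality index limit was hybridised. Sex, any pairing of the groups and the promoter of the PGC-1β transgene are not given in the sources used here. Since each array holds 1 mouse, the p-values below measure the spread between these mice, and since the RNA is from whole liver, fewer cells of a type and less RNA per cell cannot be told apart.

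MicroRNAs are short RNAs that pair with messenger RNAs, mostly through a seed near their 5′ end, and lower the output of those messengers. miR-33 is cut from an intron of Srebf2, so the host transcript that yields SREBP-2, the regulator of cholesterol synthesis and uptake, also yields miR-33, which represses the cholesterol exporter Abca1 and several genes of fatty acid oxidation. miR-183, miR-96 and miR-182 are made from 1 locus and are best known from sensory organs such as the inner ear and the retina. In SREBP biology, members of the cluster, though not each of them, repress Fbxw7 or Insig2, a pair of genes that restrain SREBPs. In human cancer cells the cluster also represses FOXO1. PGC-1β is known as a coactivator of SREBPs in liver, which is the link between the overexpressed protein and these microRNAs.

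The mature sequences are shown because the seeds group the 4 microRNAs and because their likeness bears on how far a probe can separate them. Sequences and positions are from RefSeq (GRCm38.p6), run 5′ to 3′, and have the seed, bases 2 to 8, in capitals.
mmu-miR-33: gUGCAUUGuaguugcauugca
mmu-miR-96: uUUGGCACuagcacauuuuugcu
mmu-miR-182: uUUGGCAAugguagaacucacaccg
mmu-miR-183: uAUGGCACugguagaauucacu
The 3 cluster seeds are close to each other and unlike that of miR-33. Counted from the 5′ end, the seed of miR-96 differs from that of miR-182 by C8A and from that of miR-183 by U2A, and the seed of miR-182 differs from that of miR-183 by U2A and A8C. Over the whole length miR-182 and miR-183 are the closest pair, with the same base at 18 of 22 positions, against 13 of 22 for miR-96 and miR-183 and 12 of 23 for miR-96 and miR-182. miR-33 matches each of them at only 6 or 7 of 21 positions. Of the 1738 mature mouse microRNAs in the table, miR-1271-5p is the only further one with the miR-96 seed, it has no probe on this chip, and no other entry carries the seed of miR-33, miR-182 or miR-183.

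The hairpin of miR-33 spans chr15:82198122-82198190 on the plus strand, inside Srebf2 (chr15:82147269-82205379). The cluster lies on the minus strand of chromosome 6 inside the long noncoding RNA gene Mirc35hg (chr6:30158640-30174125), with Mir183 at chr6:30169668-30169737, Mir96 at chr6:30169446-30169551 and Mir182 at chr6:30165918-30165992. Mir96 and Mir183 are 116 bp apart, while 3453 bp separate Mir182 from Mir96, so the 3 hairpins cover 3820 bp in all. The hairpins of miR-33 and miR-183 are shown with both arms in capitals, the arm named above first and the star arm after it, because the chip has a probe for each of these arms.
Mir33: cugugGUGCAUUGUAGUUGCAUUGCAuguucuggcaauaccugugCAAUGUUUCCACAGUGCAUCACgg
Mir183: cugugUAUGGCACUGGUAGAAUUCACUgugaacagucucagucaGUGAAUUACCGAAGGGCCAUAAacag

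None of the 4 microRNAs passed the test for a genotype difference, and none had values that separated the groups. Differences are LivPGC-1β minus WT on the log2 scale of quantile-normalized intensity, the mean bead brightness of a probe after all arrays were given 1 common distribution, and they were tested with limma. Benjamini-Hochberg adjustment over all 493 probes called 10 of them at a threshold of 0.05, 8 higher and 2 lower, which is 2.03% of the table, and 0 of the 4 microRNAs were among these. At an unadjusted p under 0.05 the table had 62 probes (12.6%) and the 4 microRNAs again 0. Groups that did not overlap at all were found for 23 probes (4.67%) and for 0 of the 4. The exact permutation test gave no p under 0.05 for any of the 4 either, although 6 mice against 5 are enough for it to fall below that threshold. With 4 microRNAs set against shares this low, counts of 0 do not set them apart from the rest of the chip. All 4 probes were detected on all 11 arrays.

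**Figure D1:**
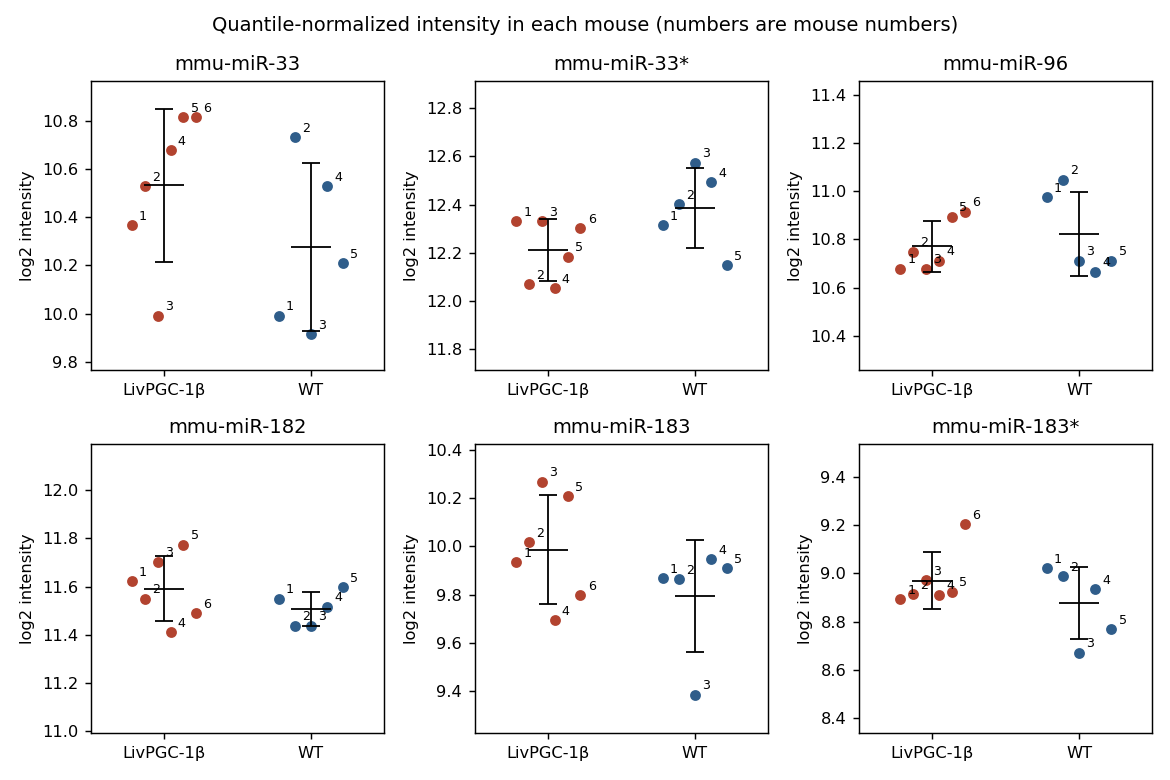
log2 of quantile-normalized intensity in each mouse for the 4 microRNAs and for the star arms of miR-33 and miR-183, LivPGC-1β left (6 mice) and WT right (5 mice); numbers are mouse numbers, the long line is the group mean and the bars are 1 SD. The groups overlap in every panel, WT mouse 3 is far below the other WT mice for mmu-miR-183 at 9.38, and WT mice 1 and 2 lie above all other mice for mmu-miR-96.

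mmu-miR-33, the microRNA of the Srebf2 intron, had log2 intensities of 10.37, 10.53, 9.99, 10.68, 10.81 and 10.81 in LivPGC-1β mice 1 to 6, against 9.99, 10.73, 9.92, 10.53 and 10.21 in WT mice 1 to 5. LivPGC-1β mice 5 and 6 were above all WT mice, LivPGC-1β mouse 3 was level with WT mouse 1 near the bottom of the range, and WT mouse 2 stood among the highest LivPGC-1β values. The means were 10.53 ± 0.32 in LivPGC-1β mice (SD, n = 6) and 10.28 ± 0.35 in WT mice (SD, n = 5). The difference of 0.26 with an SE of 0.189 had a 95% interval of -0.16 to 0.68, a fold of 1.20 with bounds of 0.894 and 1.60 (adjusted p = 0.576, limma, and two-sided exact permutation p = 0.234). A rise of more than 1.60-fold or a fall to under 0.894-fold thus lies outside the interval, and anything between them does not. miR-33 was the most variable of the 4 between mice of 1 genotype, with an SD of 0.331 that exceeded the SD of 82.8% of the tested probes, and its highest and lowest mouse were 1.87-fold apart.

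mmu-miR-96, which in humans and mice is needed for normal hair cells of the inner ear, was measured at 10.68, 10.75, 10.68, 10.71, 10.89 and 10.91 in LivPGC-1β mice 1 to 6, and at 10.98, 11.05, 10.71, 10.67 and 10.71 in WT mice 1 to 5. No LivPGC-1β mouse was above or below all WT mice, and the WT mice split into mice 1 and 2, with a mean of 11.01, and mice 3 to 5, with a mean of 10.70. LivPGC-1β mice averaged 10.77 ± 0.11 (SD, n = 6) and WT mice 10.82 ± 0.18 (SD, n = 5). The difference was -0.05 (SE 0.0827, 95% interval -0.24 to 0.13), a fold of 0.965 between 0.849 and 1.10 (adjusted p = 0.817, limma, and exact permutation p = 0.528).

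mmu-miR-182, the last hairpin of the cluster in the direction of transcription, had 11.62, 11.55, 11.70, 11.41, 11.77 and 11.49 in LivPGC-1β mice 1 to 6, and 11.55, 11.44, 11.44, 11.52 and 11.60 in WT mice 1 to 5. LivPGC-1β mice 1, 3 and 5 were above all WT mice, whereas LivPGC-1β mouse 4 was below all of them. The means of 11.59 ± 0.13 in LivPGC-1β mice (SD, n = 6) and 11.51 ± 0.07 in WT mice (SD, n = 5) differed by 0.08 (SE 0.0661, 95% interval -0.06 to 0.23), a fold of 1.06 between 0.957 and 1.17 (adjusted p = 0.604, limma, and exact permutation p = 0.251). Its interval was the narrowest of the 4, and its between-mouse SD of 0.111 was above that of 35.3% of the tested probes.

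mmu-miR-183, the first hairpin of the cluster, had 9.93, 10.02, 10.27, 9.69, 10.21 and 9.80 in LivPGC-1β mice 1 to 6, and 9.87, 9.86, 9.38, 9.95 and 9.91 in WT mice 1 to 5. LivPGC-1β mice 2, 3 and 5 were above all WT mice, LivPGC-1β mice 4 and 6 were below 4 of the 5 WT mice, and WT mouse 3 was the lowest of all. LivPGC-1β mice averaged 9.99 ± 0.23 (SD, n = 6) and WT mice 9.79 ± 0.23 (SD, n = 5). The difference of 0.19 (SE 0.131, 95% interval -0.10 to 0.48) is a fold of 1.14 between 0.934 and 1.40 (adjusted p = 0.559, limma, and exact permutation p = 0.216). Without WT mouse 3 the difference was 0.09.

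The 4 differences lay well inside the range of the table. By absolute size miR-33 ranked 78 and miR-183 ranked 123 among the 493 tested probes. Over all 493 tested probes the median difference was 0.01 with quartiles of -0.06 and 0.10, and the differences ran from -1.32 to 1.04. The values of miR-96 and miR-182 fell between the quartiles, and those of miR-183 and miR-33 lay above the upper one. The median between-mouse SD of the tested probes was 0.158, so miR-96 (0.141) and miR-182 (0.111) were steadier than the typical probe, and miR-183 (0.228) and miR-33 (0.331) less steady.

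**Figure D2:**
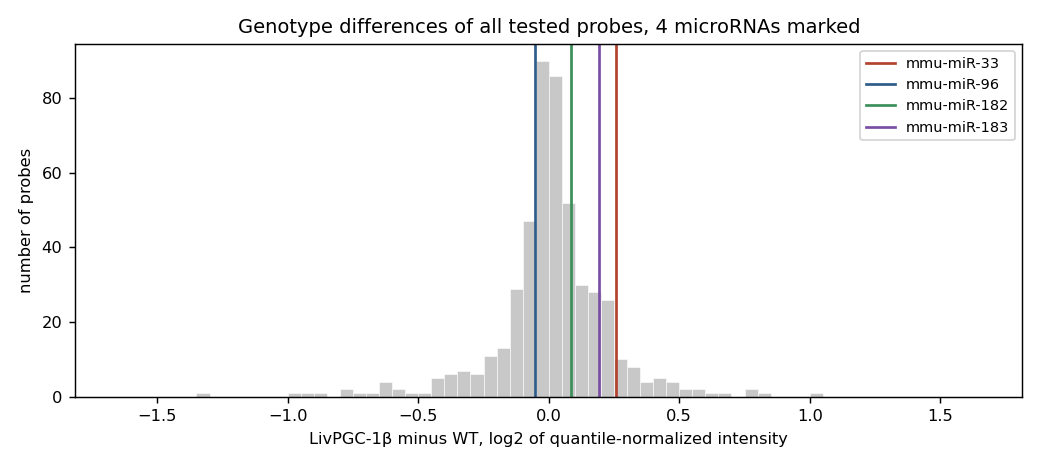
Number of probes (vertical axis) by genotype difference, LivPGC-1β minus WT in log2 of quantile-normalized intensity (horizontal axis), for the 493 tested probes, with coloured lines at the 4 microRNAs. The lines stand at -0.05 for mmu-miR-96, 0.08 for mmu-miR-182, 0.19 for mmu-miR-183 and 0.26 for mmu-miR-33. All are well inside the range of the distribution, with mmu-miR-183 and mmu-miR-33 above its upper quartile of 0.10.

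The direction of the miR-182 and miR-183 differences held under each normalization but not without one, and miR-33 and miR-96 kept their direction under every scaling. Before normalization the array medians of the deposited intensity were 619 to 871 in LivPGC-1β mice and 743 to 1036 in WT mice, and without normalization the median difference of all probes was -0.14. On that scale the difference of miR-182 was -0.13, that of miR-183 -0.09, that of miR-96 -0.26 and that of miR-33 0.03. After quantile normalization, array median scaling, cyclic loess and normexp background correction miR-33, miR-182 and miR-183 were above 0 and miR-96 was below 0. On the chip, LivPGC-1β mice sat at positions 6 to 11 and WT mice at positions 1 to 5, and a position effect and a genotype effect cannot be told apart. With position as a linear covariate the difference of miR-33 was -0.17 with an SE of 0.363.

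**Figure D3:**
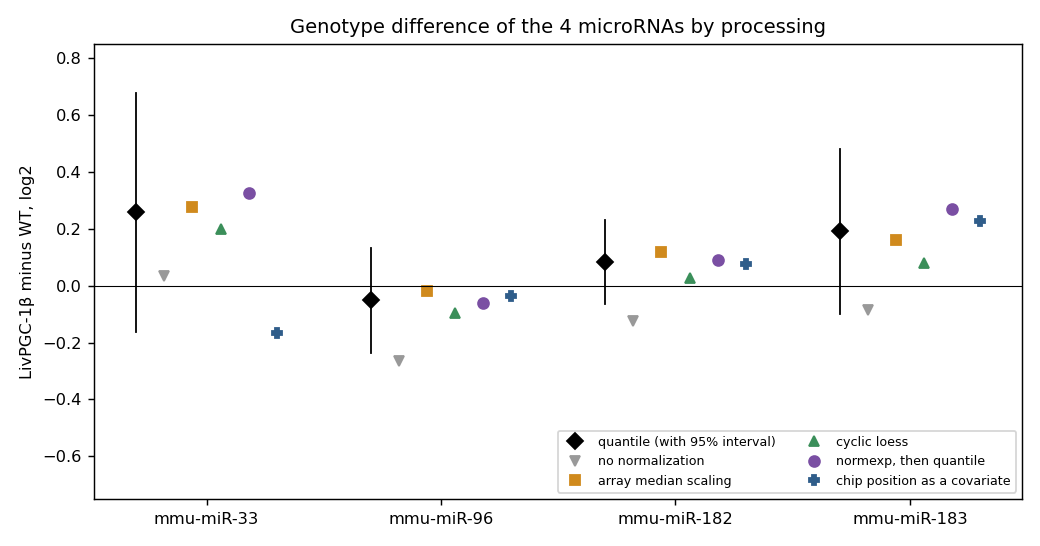
Genotype difference, LivPGC-1β minus WT in log2 (vertical axis), of the 4 microRNAs under 6 ways of processing, with the 95% interval of the quantile-normalized value as a line. The interval of each microRNA holds 0, the unnormalized values are below the others for miR-96, miR-182 and miR-183, and chip position as a covariate moves mmu-miR-33 below 0, to -0.17.

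The star arms, cut from the other side of the same hairpins, have probes for miR-33 and miR-183 only. Their mature sequences, again with bases 2 to 8 in capitals, have seeds unlike those of their partner arms.
mmu-miR-33*: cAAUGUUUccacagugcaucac
mmu-miR-183*: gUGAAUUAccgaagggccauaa
mmu-miR-33*, which in human and mouse cells has been linked to many of the same lipid genes as miR-33, was at 12.05 to 12.33 in LivPGC-1β mice and at 12.31, 12.40, 12.57, 12.49 and 12.15 in WT mice 1 to 5. LivPGC-1β mice 2 and 4 were below all WT mice, and WT mouse 5 was low among the WT mice. The means of 12.21 ± 0.13 (SD, n = 6) in LivPGC-1β mice and 12.39 ± 0.16 (SD, n = 5) in WT mice differed by -0.17 (SE 0.0852, 95% interval -0.36 to 0.01, adjusted p = 0.430, limma, and exact permutation p = 0.0823). The value stayed below 0 under all 25 alternatives, between -0.37 and -0.12, and its adjusted p was 0.102 or more in each.

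mmu-miR-33 and mmu-miR-33* thus had differences of opposite sign, 0.26 and -0.17, though neither passed the test. Within each mouse, the log2 difference of miR-33 minus miR-33*, set relative to the WT mean, ran from -0.23 to 0.74 in LivPGC-1β mice and from -0.55 to 0.44 in WT mice. LivPGC-1β mice were on average 0.43 above WT mice, beside a pooled SD of 0.387, and 4 of the 6 lay above all WT mice. This contrast was picked after the values of both arms were seen and was not tested. Over the 11 mice the arms had a Pearson r of -0.37, given as a description.

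mmu-miR-183* was at 8.89 to 9.20 in LivPGC-1β mice and at 9.02, 8.99, 8.67, 8.93 and 8.77 in WT mice 1 to 5, close to the dim end of the detected range, where the highest detection p was 0.000638. Its means of 8.97 ± 0.12 in LivPGC-1β mice (SD, n = 6) and 8.88 ± 0.15 in WT mice (SD, n = 5) differed by 0.09 (SE 0.0784, adjusted p = 0.619, limma, and exact permutation p = 0.281). As for miR-183, WT mouse 3 was the lowest of all mice. The shift of miR-183 relative to its star arm was 0.10, against a pooled SD of 0.236.

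Between mice, miR-182 and miR-183 moved together, and miR-96 from the same locus did not move with them. Over the 11 mice miR-182 and miR-183 had a Pearson r of 0.82 (permutation p = 0.00176, adjusted p = 0.0106 over the 6 pairs of the 4 microRNAs) and a Spearman rho of 0.84 (permutation p = 0.00193, adjusted p = 0.0116). LivPGC-1β mice 3 and 5 were high for both microRNAs, LivPGC-1β mouse 4 was low for both, and WT mouse 3 was the lowest mouse for miR-183 and shared the lowest WT value for miR-182. After each genotype's mean was subtracted r was 0.79. Within LivPGC-1β mice r was 0.93 over 6 mice, and within WT mice it was 0.59 over 5, too few for a test. Without the 2 mice farthest from the median of miR-182, LivPGC-1β mice 3 and 5, r was 0.65 over 9 mice, so the size of the relation rests in part on that pair. The adjusted p was 0.0596 after cyclic loess and 0.0916 without LivPGC-1β mouse 3 (r of 0.74 and 0.77), past the threshold of 0.05 in neither. miR-182 and miR-183 are also the pair with the most alike sequences, at 18 of 22 positions, and how much of 1 microRNA's RNA is read by the other's probe was not tested.

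miR-96 had an r of -0.12 with miR-182 (rho -0.22, permutation p = 0.732 and 0.508) and of 0.01 with miR-183 (rho -0.31, permutation p = 0.965 and 0.350), with adjusted values of 0.965 for both r and of 0.762 and 0.700 for the rhos. Without the 2 mice farthest from its median, WT mice 1 and 2, these r were 0.19 and 0.11. Before normalization, when brightness differed between arrays, miR-96 and miR-182 had an r of 0.72 (adjusted permutation p = 0.0403) and miR-96 and miR-183 one of 0.51. miR-33 had an r of 0.35 with miR-96 (rho 0.39, permutation p = 0.286 and 0.230, adjusted 0.857 and 0.691), of -0.08 with miR-182 (rho -0.11, permutation p = 0.806 and 0.733, adjusted 0.965 and 0.880) and of 0.18 with miR-183 (rho 0.03, permutation p = 0.605 and 0.941, adjusted 0.965 and 0.941). Without LivPGC-1β mouse 3 and WT mouse 3, the mice farthest from the median of miR-33, the r were 0.16 with miR-96, -0.10 with miR-182 and 0.09 with miR-183. Thus 1 of the 6 pairs passed.

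**Figure D4:**
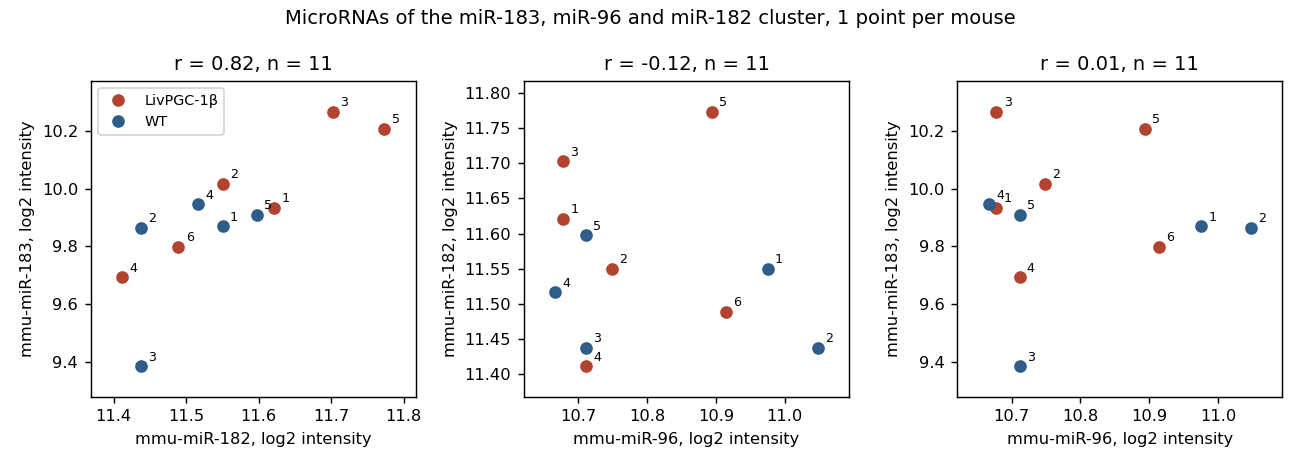
log2 of quantile-normalized intensity of the microRNAs of the cluster of miR-183, miR-96 and miR-182 plotted against each other, 1 point per mouse (6 LivPGC-1β, 5 WT), with mouse numbers. miR-182 and miR-183 rise together (r = 0.82), while miR-96 shows no such trend with miR-182 (r = -0.12) or with miR-183 (r = 0.01), and WT mice 1 and 2 lie apart on the miR-96 axis.

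The probes whose pattern over the 11 mice was most like that of each microRNA, by Pearson r among the 492 other tested probes, differed from member to member. For miR-182 they were miR-671-5p (0.84, detected on 8 of 11 arrays), miR-183 (0.82) and miR-141 (0.72), an epithelial microRNA of the miR-200 family. For miR-183 they were miR-669d (0.84), miR-467c (0.84) and miR-182 (0.82). Each of the pair therefore ranked high for the other, at rank 2 and rank 3, whereas miR-183 ranked 255 and miR-182 ranked 319 among the probes ordered by likeness to miR-96. For miR-33 the leading probes were miR-219 (0.91), miR-32 (0.85) and miR-196b (0.85). For miR-96 they were miR-540-3p (0.96), miR-208b (0.94, detected on 10 of 11 arrays) and a candidate small RNA known from sequencing (0.93).

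miR-96 had 14 probes with an r of 0.9 or more, against 1 for miR-33, 0 for miR-182 and 0 for miR-183. In 13 of these 14, as in miR-96 itself, WT mice 1 and 2 were both above all other mice. That order was found in 41 of the 493 tested probes (8.32%). miR-96 thus shared with many other probes a pattern set by a pair of WT mice, a description made after the values were seen.

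Other microRNAs of the same biology, taken from lists of textbook regulators without the 4 microRNAs, were also read, and counts of 0 among so few are near the 2.03% called over the whole table and say nothing particular about the lists. Of 13 tested repressors of Abca1, 0 were called in either direction, with differences of -0.24 to 0.25 and a median of 0.00, beside 0.01 over the whole table. The most intense among them were miR-101a at 0.05 (adjusted p = 0.379, limma) and miR-26a at -0.02 (adjusted p = 0.652, limma). Of 20 regulators of lipid synthesis and lipoproteins 0 were called, with a median of 0.02, including miR-122, the main hepatocyte microRNA and a regulator of cholesterol synthesis, at 0.01 (adjusted p = 0.817, limma) and miR-21 at -0.01 (adjusted p = 0.884, limma). Quantile normalization gives a probe that keeps its rank on every array the same value, so probes this intense have little room to differ. After array median scaling miR-122 was at 0.15 and miR-21 at 0.18, beside a median of 0.11 for all probes. Of 8 repressors of FoxO1, the factor that drives gluconeogenic genes in fasting, 0 were called, with a median of 0.03, and miR-223, also a leukocyte microRNA, was at 0.01 (adjusted p = 0.950, limma).

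Markers of the cells that could carry the cluster were read beside these values. The 9 hepatocyte markers were detected on all 11 arrays, none was called, and their summed log2 intensity was 17.11 to 17.18 in LivPGC-1β mice and 17.13 to 17.16 in WT mice. Their median difference was -0.01, and these sums include miR-122 and miR-21, which quantile normalization leaves little room to differ. miR-21 is not particular to hepatocytes, so the sums do not stand for these cells alone. The 8 bile duct and epithelial markers gave 0 calls and sums of 15.45 to 15.94 in LivPGC-1β mice and 15.46 to 15.67 in WT mice. Their differences ran from -0.12 to 0.34 with a median of 0.11, beside 0.01 over the whole table. Of 13 sensory, neuroendocrine and pancreas markers on the chip 9 were tested, miR-124 of neurons and miR-216a of the exocrine pancreas were detected on no array, and miR-217 of the exocrine pancreas on 3. miR-7a, a microRNA of neuroendocrine cells, was called lower, at 13.45 to 13.53 in LivPGC-1β mice and 13.67 to 13.87 in WT mice (difference -0.30, adjusted p = 0.00523, limma). The other 8 tested markers of this list were not called, and the list's median difference was -0.01. miR-9 (0.33), miR-375 (0.16) and miR-211 (0.04) had differences above 0. miR-7a* (-0.97), miR-7b (-0.44), miR-204 (-0.43), miR-184 (-0.01) and miR-216b (-0.01) had differences below 0. miR-7a* stood at 14.18 in WT mouse 5 against 11.21 to 11.83 in the other WT mice. The call of miR-7a was lost without normalization, after array median scaling, with a replicate block and with chip position as a covariate (adjusted p = 0.135 to 0.572). The sums of the list were 14.13 to 14.37 in LivPGC-1β mice and 14.44 to 15.17 in WT mice. The groups did not overlap in this sum, as for 4.67% of single tested probes, and the sum was not tested. Its brightest part was miR-7a in every mouse but WT mouse 5, where it was miR-7a*, so it does not stand for the whole list. Of 8 leukocyte markers miR-146b, a regulator of innate immune signalling, was called higher (difference 0.43, adjusted p = 0.0449, limma), but 16 of the 25 alternatives ended that call, among them leaving out any WT mouse or LivPGC-1β mouse 1, 3, 5 or 6 (adjusted p = 0.0605 to 0.117). The sums of that list were 16.32 to 16.41 in LivPGC-1β mice and 16.18 to 16.32 in WT mice. All 8 leukocyte markers had differences above 0, from 0.01 to 0.45 with a median of 0.10, and the list was not tested. The 3 erythroid markers gave 0 calls, with sums of 15.46 to 15.62 in LivPGC-1β mice and 15.52 to 15.66 in WT mice. The share of any of these cells in the values of the 4 microRNAs was not tested.

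The nearest annotated microRNA hairpins with a probe lie far from both loci. Below the cluster, 1143226 bp away, is Mir129-1, whose miR-129-5p is also made from a further copy elsewhere in the genome and had a difference of -0.33 (adjusted p = 0.673, limma). Above it, 571561 bp away, is Mir335, with miR-335-3p at 0.21 (adjusted p = 0.366, limma) and miR-335-5p at 0.04 (adjusted p = 0.798, limma). Above Mir33, 3508412 bp away, is Mirlet7c-2, whose let-7c also has another genomic source and was at -0.01 (adjusted p = 0.919, limma). None of these neighbours passed the test.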

How the data were processed

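Total RNA of livers from 6 LivPGC-1β and 5 WT mice was measured on 11 arrays of 1 Illumina mouse microRNA bead chip. The deposited table that served as the start of every result holds raw intensity values, the mean bead brightness of 655 probes that the authors took from Genome Studio without normalization or background subtraction. Beside each intensity the deposited table gives a detection p-value against negative control beads. A further table deposited by the authors has quantile-normalized intensity values and served as an alternative. MicroRNA sequences were RefSeq entries of GRCm38.p6, in which all 4 microRNAs and both star arms were found by name.

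Following the paper's methods, intensities were quantile normalized over all probes and arrays without background subtraction, then set on the log2 scale. Of the 655 probes, 493 had a detection p-value no higher than 0.01 on 5 or more of the 11 arrays, counted without regard to genotype, and were tested. Per array, 444 to 508 probes were detected, and the number of arrays limits the precision. As the methods give no test for this comparison, limma 3.58.1 in R 4.3.3 was run on all 11 arrays with no covariate. P-values were adjusted by Benjamini-Hochberg over the tested probes and judged against 0.05. Single microRNAs also had a two-sided exact permutation test over the 462 splits of the mice. Correlations over mice were tested with 100000 permutations (Python 3.11.15, scipy 1.17.1). The fit was tested on simulated data.

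The 4 microRNAs and the lists were chosen with earlier results of these data known. Named microRNAs were the 4, their star arms on the chip, the 3 most alike probes of each, the nearest neighbouring hairpins with a probe, members of the lists that passed the threshold and the 2 most intense others of each pathway list. Further markers were named after their values were seen. Probe levels were not compared as amounts of RNA, since probes differ in affinity. Sums over marker lists weigh the brightest probes most. The 25 alternatives were other normalizations and background correction, the table normalized by the authors, other detection filters and their order, an intensity trend, array weights, chip position as a covariate, a replicate block, leaving out single mice, and leaving out WT mice 3 and 5 together. The labels number the mice of both groups but give no pairing.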

Additional observations from a re-analysis of the deposited data

Results flagged for a closer look

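For mmu-miR-183, WT mouse 3 stood at a log2 intensity of 9.38, far below the other WT mice, which lay between 9.86 and 9.95. The gap to its nearest neighbour was 0.853 of the whole WT range, above Dixon's critical value of 0.71 for 5 samples.

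For mmu-miR-183*, LivPGC-1β mouse 6 stood at 9.20, above the other LivPGC-1β mice at 8.89 to 8.97. The gap was 0.753 of the range, above the critical value of 0.625 for 6 samples. Chance flags about 1 in 20 groups, and 12 groups were examined, the 4 microRNAs and both star arms in each genotype.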

How the results depend on the processing

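None of the 4 microRNAs was called under any of the 25 alternatives, while the number of probes called over the whole table, 10 as reported, was 0 without normalization, 4 after array median scaling, 1 with a replicate block, 0 with chip position as a covariate, 5 without WT mice 3 and 5 and 4 to 13 with each mouse left out. With each mouse left out, the difference ran from 0.168 to 0.374 for miR-33, from -0.0931 to 0.00603 for miR-96, from 0.0469 to 0.119 for miR-182 and from 0.0886 to 0.251 for miR-183. miR-96 crossed 0 only without WT mouse 2, and miR-33 only with chip position as a covariate (-0.17). Without normalization miR-182 (-0.13), miR-183 (-0.0854), miR-183* (-0.10), miR-101a (-0.0729), miR-122 (-0.0907), miR-223 (-0.0374), miR-335-3p (-0.0183) and miR-335-5p (-0.0868) were below 0. Cyclic loess put miR-101a at -0.0428 and miR-122 at -0.0632. Array median scaling put miR-21 at 0.18, miR-26a at 0.16 and let-7c at 0.19. The median of all probes was -0.02 after cyclic loess and 0.11 after array median scaling. let-7c was at 0.0150 with chip position as a covariate. Without WT mice 3 and 5, miR-183* was at -0.0107 and miR-129-5p at 0.0354. With each mouse left out miR-223 ran from -0.0117 to 0.0515, let-7c from -0.0327 to 0.000966 and miR-129-5p from -0.48 to 0.0482, the last above 0 only without WT mouse 5. Correlations were run under 17 of the alternatives, namely other normalizations, background correction, the authors' normalized table and leaving out mice. They were not run with a replicate block or chip position. Under these 17 the correlation of miR-182 and miR-183 ran from 0.74 to 0.90. Its adjusted permutation p was 0.0596 after cyclic loess (r = 0.74) and 0.0916 without LivPGC-1β mouse 3 (r = 0.77, in a range of 0.77 to 0.88 with each mouse left out). Among the other pairs, only miR-33 with miR-96 kept its sign. miR-33 and miR-182 had an r of 0.0897 after array median scaling and of -0.47 to 0.12 with each mouse left out. miR-33 and miR-183 had -0.13 without normalization, -0.15 after cyclic loess, -0.31 without WT mice 3 and 5 and -0.28 to 0.50 with each mouse left out. miR-96 and miR-182 had 0.72 without normalization, 0.16 after array median scaling and -0.37 to 0.12 with each mouse left out. miR-96 and miR-183 had -0.34 after cyclic loess, -0.20 without WT mice 3 and 5 and -0.18 to 0.19 with each mouse left out. With a replicate block the differences were 0.20 for miR-33, -0.0804 for miR-96, 0.10 for miR-182 and 0.23 for miR-183. Same-numbered mice correlated at -0.13 to 0.07 and none best with its own number. These few correlations were not tested and cannot exclude a pairing. The cause of these moves was not tested. With 11 arrays, differences inside the printed intervals could not be resolved.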
